A study of Homo sapiens with 6 samples.

Results

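CD74 and the genes of the MHC class II pathway were examined in RNA-seq libraries made from HK-2, a cell line derived from proximal tubule epithelium of human kidney and transformed with human papillomavirus 16. The list named 10 genes: CD74, CIITA, HLA-DRA, HLA-DRB1, HLA-DMA, HLA-DMB, HLA-DPA1, HLA-DPB1, MIF and CTSV. Of these, 6 matched a row among the 26899 genes of the counts table. HLA-DRA, HLA-DRB1, HLA-DPA1 and HLA-DPB1 were searched for and matched no row, so no statement is made on their levels. The members were chosen by measured values, since the read counts of CD74 were known to be high in these libraries, so its level is a description and not a finding. The rule used no difference between the groups.

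By their labels, 3 libraries were controls and 3 came from cells with a knockdown of ANXA2, a membrane-binding annexin. The titles call the control cells WT, while the descriptions abbreviate them as shCtrl. Plasmids were introduced with a lipid reagent, and no interferon or other immune stimulus is named. Nothing in the labels says that replicates came from separate cultures, so the p-values measure the spread between these libraries. Depth ranged from 24231267 to 34561675 counted reads. The knockdown libraries gave 1519 to 1561 CPM for ANXA2 itself, inside the control range of 1461 to 1675 CPM (log2 fold change -0.05, adjusted p 0.848 in edgeR). CPM are counts scaled for the depth of each library and, by the TMM factors of edgeR, for its composition. The groups are therefore called the libraries labelled control and labelled knockdown, and each direction below is a difference between labels. Control replicate 1 stood farthest from the other libraries on the first principal component (38.5% of the variance). In bulk RNA, a lower level in fewer cells and a lower level in every cell cannot be told apart.

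MHC class II molecules present peptides from endocytosed proteins to CD4+ T cells and are made mainly by professional antigen-presenting cells. CD74, the invariant chain, occupies the peptide groove of new class II molecules and guides them to endosomes. There, cathepsins degrade CD74 and HLA-DM, a heterodimer of HLA-DMA and HLA-DMB, exchanges its remnant for peptide. CIITA is the coactivator that switches the class II genes on, commonly after interferon gamma. CD74 also reaches the cell surface, where it binds the cytokine MIF. In kidney, tubule cells are known to gain class II molecules during inflammation.

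To place these genes in the HK-2 transcriptome, levels were compared per length with the FPKM values of the authors (fragments scaled for gene length and library depth). The mean FPKM over the 6 libraries was 85.6 for CD74, 75.0 for HLA-DMB and 69.4 for MIF, which placed them at ranks 749, 853 and 926 among 26803 genes. HLA-DMA, with a mean FPKM of 5.35 (rank 6572), and CTSV, with 5.10 (rank 6730), lay an order of magnitude lower. The mean FPKM of CIITA was 0.0067, at rank 24694. Its deposited FPKM were rounded to 0 or 0.01, so this mean and its rank are imprecise. In single libraries its rank ran from 18551 to 20946. The order of CD74, HLA-DMB and MIF was not fixed, because their FPKM ranges over the libraries overlapped (56.8 to 103, 36.4 to 105 and 52.3 to 114). HLA-DMA (3.68 to 6.46) and CTSV (4.60 to 5.70) overlapped as well. The members therefore fell into 3 tiers of level that did not overlap.

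**Figure D1:**
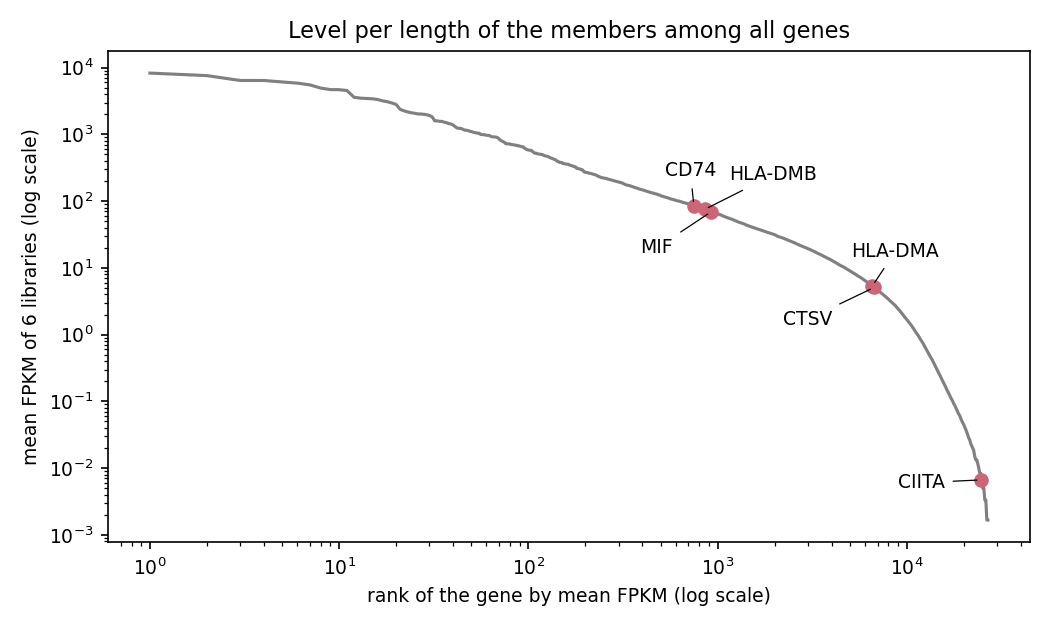
Mean FPKM over the 6 libraries (vertical axis, log scale) against the rank of each gene among the 26803 genes of the FPKM table (horizontal axis, log scale). The grey line is all genes and the red points are the 6 members with a row. CD74, HLA-DMB and MIF lie together at ranks 749 to 926, and HLA-DMA and CTSV at ranks 6572 and 6730. CIITA lies at rank 24694, from FPKM rounded to 0 or 0.01.

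CD74 (ENSG00000019582.14) maps to chromosome 5 between 150401637 and 150412969 (minus strand, GRCh38). It held 3831, 3238 and 4899 reads in the libraries labelled control and 6272, 5688 and 4113 reads in those labelled knockdown, in order of replicate. After scaling this was 157, 99.1 and 157 CPM in the libraries labelled control and 184, 172 and 143 CPM in those labelled knockdown. The library labelled control replicate 2 was the lowest, the other 5 lay between 143 and 184 CPM, and the groups overlapped. The means were 138 ± 33.5 CPM and 166 ± 21.3 CPM (SD, n = 3). The edgeR quasi-likelihood test gave a log2 fold change of 0.27 (SE 0.179), a fold of 1.21 with a 95% interval of 0.912 to 1.6, and a Benjamini-Hochberg adjusted p of 0.686. Without control replicate 2 the log2 fold change was 0.083, so that library carried most of the estimate. Without control replicate 1 and knockdown replicate 3 together, an omission chosen after the data were seen, it was 0.48 (adjusted p 0.281).

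No member passed an adjusted p of 0.05 in edgeR. Of the 5 tested members, 0 were called, and 0% of all 15299 tested genes were called in the same fit. At an unadjusted p under 0.05 there were also 0 members, against 8.18% of tested genes. The groups were free of overlap for 0 members, against 15.6% of tested genes (7.94% with the knockdown label higher and 7.7% with it lower). DESeq2 called 31 genes and limma-voom 0, and 0 of the 5 members were called under any alternative tried. The median log2 fold change of the 5 members was 0.27, beside -0.0065 for all tested genes.

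**Figure D2:**
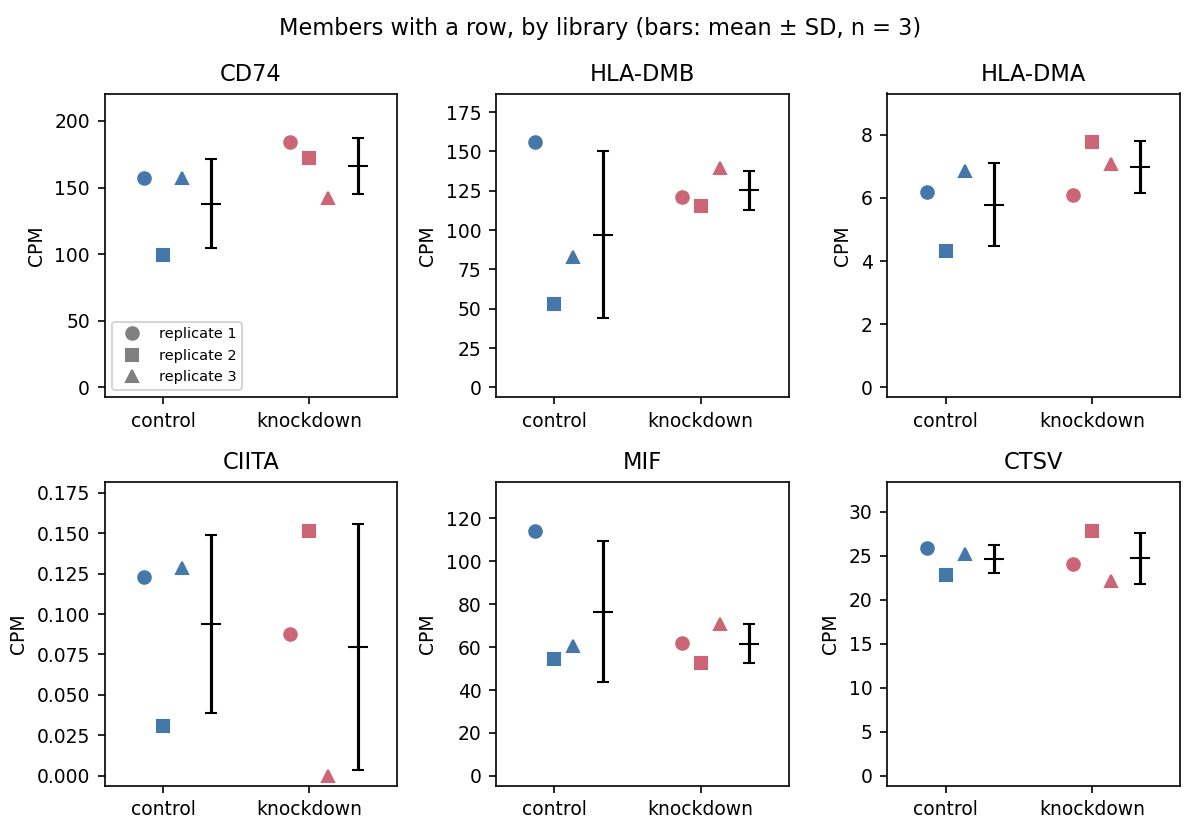
CPM (vertical axes, different in each panel) of the 6 members with a row in the 3 libraries labelled control (blue) and the 3 labelled knockdown (red). Symbols mark replicate numbers, and the black bars give the mean ± SD (n = 3). The groups overlapped in all 6 panels, control replicate 2 was the lowest for CD74, HLA-DMB and HLA-DMA, and control replicate 1 was the highest for HLA-DMB and MIF.

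The partner chains of HLA-DM were present at unequal levels. HLA-DMB (ENSG00000242574.8, chromosome 6 from 32934629 to 32941028, minus strand) held 3799, 1735 and 2579 reads in the libraries labelled control and 4127, 3811 and 4026 reads in those labelled knockdown. HLA-DMA (ENSG00000204257.14, chromosome 6 from 32948613 to 32969094, minus strand) held 151, 141 and 213 reads in the libraries labelled control. In the libraries labelled knockdown it held 208, 256 and 204 reads. These genes are neighbours, and their proteins form a heterodimer of equal parts. Per length, the FPKM of HLA-DMB was 20.2, 9.90 and 9.74 times that of HLA-DMA in the libraries labelled control and 16.0, 12 and 15.9 times in those labelled knockdown. HLA-DMB was thus the higher chain in each of the 6 libraries. The ratio was 13.3 ± 6.02 and 14.6 ± 2.28 (SD, n = 3), with an exact two-sided permutation p of 0.8 on the log2 scale, and a design of 3 against 3 cannot go below 0.1. After Benjamini-Hochberg adjustment over the 7 ratios compared, this exact p was 0.93. A readthrough gene that spans HLA-DMB and HLA-DMA shares 9.49% and 6.35% of their exonic bases and held 13 to 34 reads per library. On the opposite strand, BRD2 covers 2.18% of the exonic bases of HLA-DMA and held 6862 to 10215 reads. Without the strand setting of the counting, reads of BRD2 cannot be told apart from those of HLA-DMA in that stretch, which also touches the ratio.

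HLA-DMB also varied more between the libraries than its partner. It was at 156, 53.1 and 82.8 CPM in the libraries labelled control and 121, 115 and 139 CPM in those labelled knockdown. The libraries labelled control held the highest value and the lowest 2 values, and they enclosed the knockdown group. Its edgeR log2 fold change was 0.37 (SE 0.314) with an adjusted p of 0.743 and a 95% interval of the fold from 0.79 to 2.11. The estimate turned on single control libraries, being 0.88 (adjusted p 0.362) without control replicate 1 and 0.073 without control replicate 2. Without control replicate 1 and knockdown replicate 3 together it was 0.80 (adjusted p 0.197). HLA-DMA was at 5.78 ± 1.31 CPM and 6.97 ± 0.833 CPM (SD, n = 3) in the libraries labelled control and labelled knockdown. Its log2 fold change was 0.27 (SE 0.222) with an adjusted p of 0.734, and without control replicate 2 it was 0.098.

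The chains of HLA-DO, which restrains HLA-DM, were read from the list of other class II chains. HLA-DOB held 7, 7 and 9 reads in the libraries labelled control and 18, 17 and 5 in those labelled knockdown. HLA-DOA held at most 3 reads in a library labelled control and at most 6 in one labelled knockdown. Neither passed the low-count filter, and the other 7 chains of that list matched no row.

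CIITA (ENSG00000179583.17, chromosome 16 from 10866222 to 10943021, plus strand) was at the limit of detection. It held 3, 1 and 4 reads in the libraries labelled control and 3, 5 and 0 reads in those labelled knockdown. This made 8 reads in either group and 16 of 184477135 reads in all. A floor of 3 reads corresponded to between 0.0878 and 0.123 CPM per library, and 2 of the 6 libraries exceeded 3 reads. CIITA was not tested, and no fold is given. Part of its exonic sequence (10.7%) overlaps DEXI on the opposite strand, and without the strand setting of the counting the reads of CIITA and DEXI cannot be told apart there.

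The factors that CIITA acts through were all read above the low-count filter, at unequal levels. RFX5, RFXANK and RFXAP form the complex that binds the X box of class II promoters, and NFYA, NFYB and NFYC form the complex that binds the Y box. RFX5 was at a mean of 17.8 FPKM, RFXANK at 32.2 FPKM and RFXAP at 1.54 FPKM over the 6 libraries. CREB1, which binds beside RFX, was at 2.33 FPKM, so that RFXAP and CREB1 lay below HLA-DMA and CTSV. The NFY subunits lay between 4.14 FPKM (NFYB, by its mean also below HLA-DMA and CTSV) and 12.6 FPKM (NFYC). All 7 promoter factors were tested and 0 were called, with log2 fold changes of -0.24 to 0.24 and a median of -0.036. NFYA was higher in the libraries labelled knockdown without overlap (28.6 to 34.3 CPM against 35.9 to 38.5 CPM), at an adjusted p of 0.615.

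Genes of the route that normally induces CIITA were also read. JAK1, a kinase of the interferon gamma receptor, was at a mean of 60.4 FPKM, and the receptor chains IFNGR1 and IFNGR2 were at 24.9 and 24.6 FPKM. IRF1, a transcription factor that acts on the CIITA promoter, was at 18.0 FPKM, whereas the kinase JAK2 was at 0.167 FPKM. Of the 8 genes of this route in the list, 0 were called, with a median log2 fold change of 0.099. In the libraries where CIITA held 0 to 5 reads, IRF1 held 1643 to 2558 reads.

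Letters of the X and Y boxes were searched for in the RefSeq promoter sequences (GRCh38.p14) of 8 of the 10 genes. The search covered the 250 bases before the start. CIITA and HLA-DRA had no entry. The motifs were TGATG, the letters at the end of the X box, and CCAAT, the core of the Y box, which reads ATTGG on the other strand. They and a gap of at most 70 bases were chosen after these sequences had been read, so the matches below were fixed by that choice and are a description only. TGATG on the strand of the gene followed by CCAAT on either strand stands in the promoters of CD74, HLA-DRB1, HLA-DMA and HLA-DMB. Over the whole table of 35116 promoters the share was 1.89%, which is no comparison with genes whose sequences set the search. It was not found in these windows for HLA-DPA1, HLA-DPB1, MIF or CTSV. The stretches are printed 5′ to 3′ along the gene, with each TGATG (which can overlap itself) and CCAAT or ATTGG in capitals.
CD74 (chr5:150412944-150413007, minus strand): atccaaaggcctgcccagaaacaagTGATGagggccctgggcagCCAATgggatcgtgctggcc
HLA-DMA (chr6:32953157-32953226, minus strand): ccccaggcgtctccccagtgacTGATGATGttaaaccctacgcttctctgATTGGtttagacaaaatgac
HLA-DMB (chr6:32941031-32941132, minus strand): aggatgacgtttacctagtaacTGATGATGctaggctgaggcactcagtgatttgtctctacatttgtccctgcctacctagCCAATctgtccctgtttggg
HLA-DRB1 (chr6:32589875-32589943, minus strand): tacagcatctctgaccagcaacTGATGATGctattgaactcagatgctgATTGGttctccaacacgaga

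The gap from the last capital of TGATG to the first of CCAAT or ATTGG was 14 bases in CD74, 20 in HLA-DMA, 19 in HLA-DRB1 and 52 in HLA-DMB. HLA-DMB was included through the wide limit on the gap. A match describes letters and is not a measured binding site.

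The proteases that process CD74 and antigens were examined next. CTSV (ENSG00000136943.10, cathepsin V, chromosome 9 from 97029677 to 97156556, minus strand) is the protease that degrades CD74 in human thymic epithelium. It held 630, 746 and 786 reads in the libraries labelled control and 821, 918 and 640 reads in those labelled knockdown. CTSV varied least of the 5 tested members over the 6 libraries, at 24.6 ± 1.59 CPM and 24.7 ± 2.87 CPM (SD, n = 3). In edgeR the log2 fold change of CTSV was 0.0036 (SE 0.129), with an adjusted p of 0.995 and a 95% interval of the fold from 0.819 to 1.23. Its sign changed between scalings, so no direction is given. None of its windows of 100 bases (0%) occurred in transcripts of another gene, including its close paralogue CTSL.

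CTSS, the main CD74 protease of B cells and dendritic cells, was at a mean of 29.9 FPKM, and CTSL was at 31.9 FPKM. Within each library CTSL was 5.46 to 7.37 times and CTSS 2.76 to 8.99 times as high as CTSV per length. CTSD, an aspartic protease of lysosomes, was the gene of this group with the smallest adjusted p. It was at 853, 724 and 803 CPM in the libraries labelled control and 1239, 1123 and 1180 CPM in those labelled knockdown, without overlap. Its edgeR log2 fold change was 0.57 (SE 0.0847) with an adjusted p of 0.156. CTSH had a log2 fold change of 0.41 and an adjusted p of 0.605. Of the 10 tested genes of antigen processing, 0 were called, 9 had positive estimates (49% of all tested genes did) and the median log2 fold change was 0.16.

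MIF (ENSG00000240972.1, chromosome 22 from 23894383 to 23895227, plus strand) is the ligand of CD74. It held 2783, 1775 and 1891 reads in the libraries labelled control and 2114, 1734 and 2037 reads in those labelled knockdown. At 114 CPM, control replicate 1 stood above the other 5 libraries, which lay between 52.5 and 70.6 CPM. The means were 76.4 ± 32.8 CPM and 61.7 ± 9.02 CPM (SD, n = 3). The edgeR log2 fold change was -0.31 (SE 0.256) with an adjusted p of 0.738, and it changed sign to 0.10 without control replicate 1.

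MIF overlaps other annotated genes, and how overlapping reads were counted was not stated. AP000350.10 (ENSG00000251357.4), a readthrough gene that starts upstream of MIF and ends on its last exons, covers 48.9% of the exonic bases of MIF on the same strand. It held 9433, 9690 and 13335 reads in the libraries labelled control and 13723, 11497 and 10651 reads in those labelled knockdown, which was 3.39 to 7.05 times the reads of MIF. The MIF row held fewer reads than that of AP000350.10 in each of the 6 libraries, and the level of MIF above is uncertain. With both rows added, the locus reached 501, 351 and 489 CPM in the libraries labelled control and 464, 401 and 440 CPM in those labelled knockdown. This sum can hold reads from upstream of MIF, and any reads counted in both rows would enter it double. Control replicate 1 no longer stood apart in that sum. Its log2 fold change was -0.039 (SE 0.136) with an adjusted p of 0.948 in edgeR, an alternative chosen after the data were seen.

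The antisense gene MIF-AS1 covers 94.1% of the exonic bases of MIF. It was at 14.3 CPM in control replicate 1, where MIF was highest, and at 1.38 to 4.16 CPM in the other 5 libraries. The libraries were prepared to keep strand, but the strand setting of the counting was not stated, so the reads of MIF and MIF-AS1 cannot be told apart with certainty. The part of MIF-AS1 in the MIF value was not tested.

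**Figure D3:**
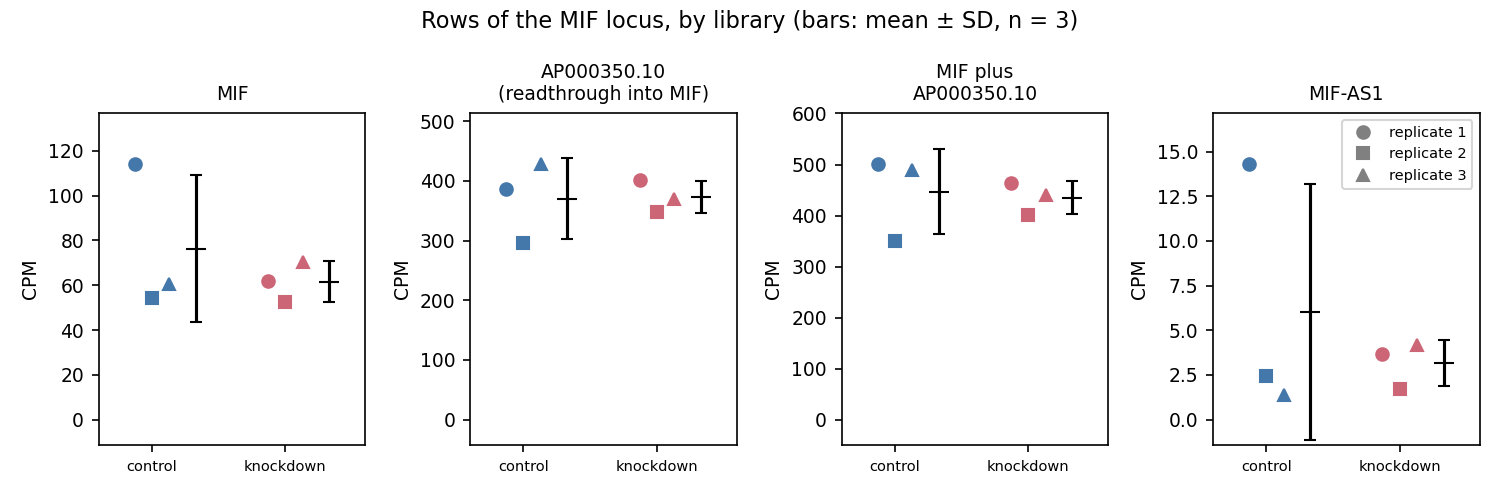
CPM (vertical axes, different in each panel) of MIF, of the readthrough gene AP000350.10, of their summed reads and of the antisense gene MIF-AS1, in the libraries labelled control (blue) and labelled knockdown (red), with the mean ± SD (n = 3) in black. Control replicate 1 is the highest for MIF and MIF-AS1 but not for AP000350.10, and it lies beside control replicate 3 in the sum.

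CD74 signals on MIF binding together with CD44, and chemokine receptors act as further MIF receptors. CD44 was abundant, at a mean of 126 FPKM, and DDT, the homologue of MIF, was at 43.1 FPKM. The chemokine receptor CXCR4 held 0 to 3 reads and ACKR3 0 to 4 reads per library, and CXCR2 matched no row. CD44 had a log2 fold change of -0.17 with an adjusted p of 0.825, and DDT of 0.18 with 0.674. CD40, a costimulatory receptor, was at 55.7 FPKM, while CD80, a costimulatory ligand of T cells, held 4 reads in all.

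Over the 7 lists of other class II pathway genes, 38 of 49 genes had a row and 33 were tested. Of these, 0 were called in edgeR and 2 (CTSD and CTSH) had an unadjusted p under 0.05, beside 8.18% of all tested genes. In 3 (NFYA, USF1 and CTSD) the groups did not overlap, beside 15.6% of all tested genes. The median log2 fold change of the 33 was 0.084. Some of these genes, like a share of all tested genes, were lowest in 2 libraries of different labels. In 8 of the 38 tested members and pathway genes the libraries labelled control replicate 1 and knockdown replicate 3 were the lowest 2, as they were in 13.9% of all tested genes. CD40 was at 44.4 and 53.4 CPM in those libraries and at 125 to 155 CPM in the other 4, and CTSS was at 64.1 and 80.9 CPM against 130 to 185 CPM. No tested member, CD74 included, was among the 8.

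**Figure D4:**
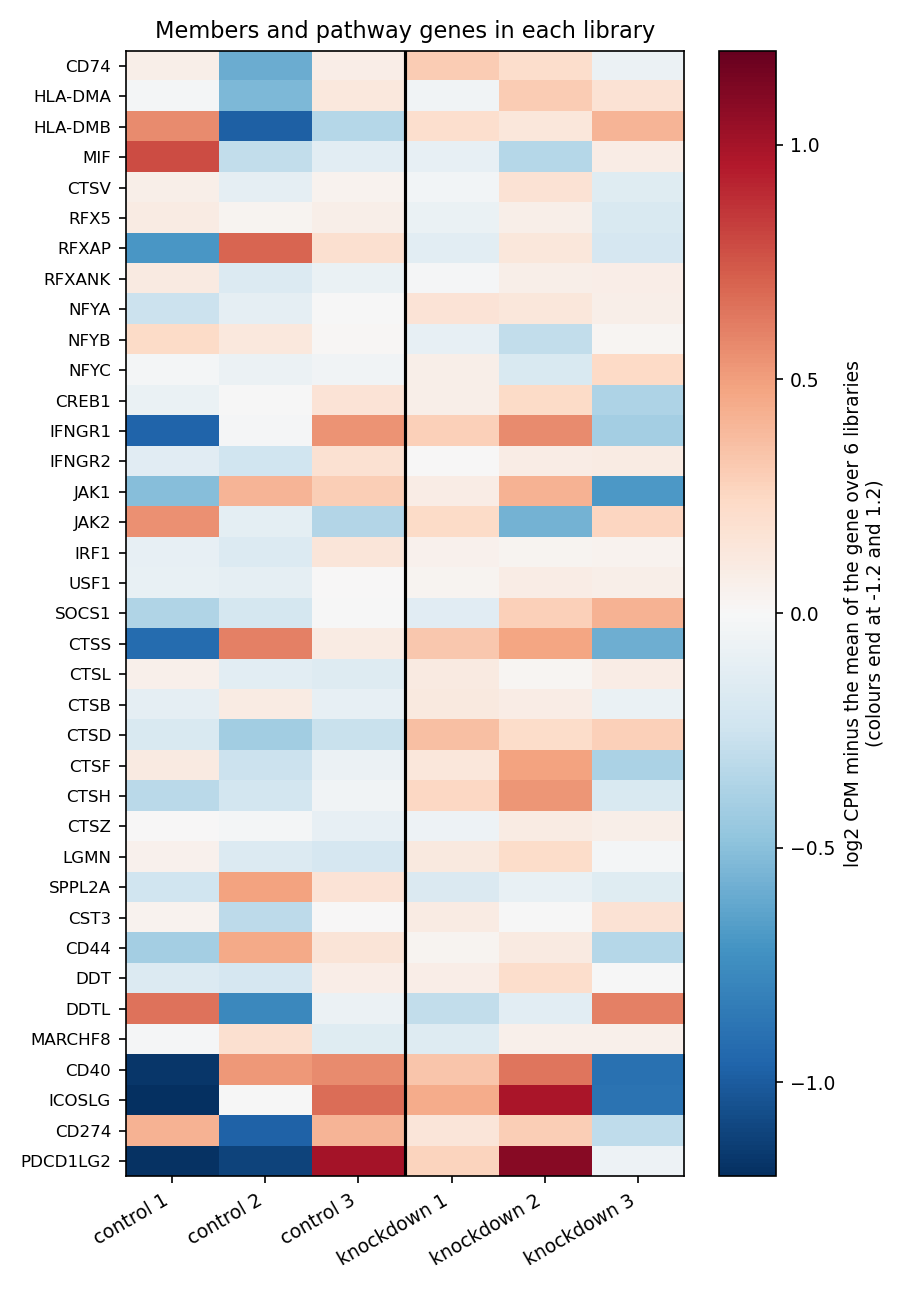
Log2 CPM of the tested members and of tested pathway genes minus the mean of each gene over the 6 libraries (colour, red above and blue below the mean), with genes in rows and libraries in columns. CD40, ICOSLG, CTSS, IFNGR1 and JAK1 are low in control replicate 1 and knockdown replicate 3, whereas CD74, HLA-DMA and HLA-DMB are lowest in control replicate 2.

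**Figure D5:**
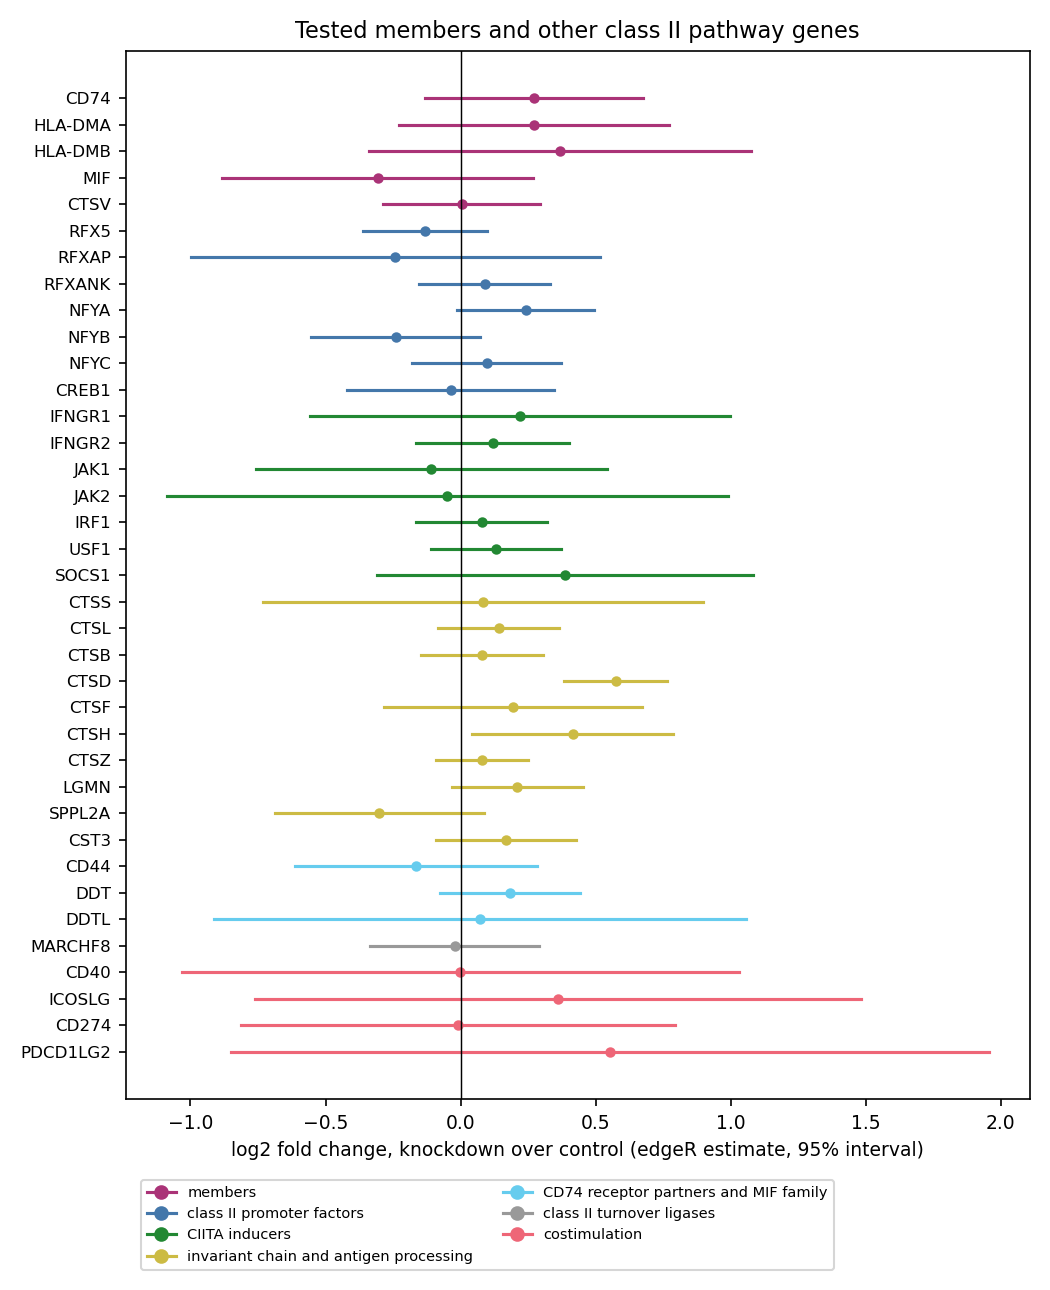
The edgeR log2 fold change of the libraries labelled knockdown over those labelled control (horizontal axis, points) with its 95% interval (lines) for the 5 tested members and tested pathway genes, coloured by list. The intervals of the 5 members include 0, and CTSD has the smallest adjusted p (0.156).

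The profile of CD74 over the libraries was then compared with those of 8913 tested genes of at least 10 CPM. The measure was the root mean square difference of log2 CPM, each gene centred on its own mean over the 6 libraries, where CD74 itself varied by 0.288 around its mean. The closest gene was GSN, which encodes the actin-severing protein gelsolin, at 0.0398. It was followed by TFB1M (0.0593), FBXW9 (0.0600), ACAD10 (0.0641) and CNNM4 (0.0660). HLA-DMA, itself below 10 CPM, lay at 0.181, with 491 of these genes closer to CD74. CTSV lay at 0.243 (1813 genes closer), HLA-DMB at 0.369 (5801 closer) and MIF at 0.431 (7215 closer). These values describe 6 libraries and were taken as the smallest of many, so no test is attached to them.

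The identity of the cells was checked against marker genes. Of 16 tubule and epithelial markers, 11 passed the low-count filter and their levels were mixed. The keratin KRT8 (491 FPKM), the transcription factor PAX8 (115 FPKM) and the brush-border enzyme GGT1 (69 FPKM) were high. PAX2 (1.57 FPKM), the brush-border enzyme MME (0.778 FPKM) and SLC34A1 (0.127 FPKM) were low. The 5 markers that did not pass were LRP2, CUBN, AQP1, ANPEP and CDH1, which held at most 16 reads in any library. Of 15 leukocyte markers, 10 had a row and 5 were tested, with 0 called. The 10 together summed to between 5.20 and 7.51 CPM per library labelled control and between 6.09 and 10.4 CPM per library labelled knockdown, where CD74 alone was at 99.1 to 184 CPM. The myeloid markers CD14 and ITGAX made up most of this sum. With the control label CD14 held 36 to 75 reads, and with the knockdown label it held 53 to 118, with overlap. For ITGAX these ranges were 23 to 86 reads and 92 to 145 reads, its CPM did not overlap between the labels, and its log2 fold change was 0.83 with an adjusted p of 0.615 in edgeR. The defining markers SPI1 and CD79A held 1 and 5 reads over the 6 libraries, and PTPRC, MS4A1, CD3E and TYROBP matched no row. The part of other cells in the level of CD74 was not tested.

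MHC class I genes set a scale for these levels. Per length, B2M was 3.09 to 4.78 times as high as CD74 within a library. NLRC5, the class I counterpart of CIITA, held 210 to 368 reads per library, where CIITA held 0 to 5. All 7 class I genes were tested, 0 were called and 6 were higher in the libraries labelled knockdown without overlap (7.94% of all tested genes were), with a median log2 fold change of 0.31.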

How the data were processed

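Poly(A)-selected, strand-preserving libraries of HK-2 (3 per label) were sequenced. The authors deposited raw read counts per gene for 26899 genes and FPKM values, scaled by them for length and depth and rounded, for 26803 genes. The processing notes of the submitters name TopHat2, edgeR, bcl2fastq and GRCh38, without versions or roles. The counting program, annotation and strand setting were not stated. Over 2556 genes above 20 FPKM, the deposited FPKM equalled the counts rescaled per gene and library (largest SD 0.000286 on the log2 scale), so they add no measurement.

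Counts were tested with the edgeR 4.0.16 quasi-likelihood test in R 4.3.3, with TMM scaling and the low-count filter (minimum count 10, total 15) leaving 15299 genes, and p-values were adjusted over all of them by Benjamini and Hochberg. CIITA and other untested genes were scaled to all reads of a library with the same TMM factors. Depth was 24231267 to 34561675 reads, and read floors cover counting error only. Alternatives used DESeq2 1.42.0, limma 3.58.1, other scalings, no filter, FPKM with pseudocounts of 1 and 0.1, a replicate block and omission of libraries. The script was tested on simulated data. Ratios were compared by exact permutation tests. Positions and overlaps are from GENCODE release 44 on GRCh38, in which 97.12% of identifiers were found without version. Genes were matched by identifier.

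The members and lists were chosen with earlier results of these data known. All members and ANXA2 were named. Genes of the lists could be named where their mean was at least 1 CPM in either group, or where they are class II chains or leukocyte markers near 0. The 5 tested genes of at least 10 CPM with profiles closest to CD74 were also named. JAK2, CD80, CXCR4, ACKR3, SLC34A1, LRP2, CUBN, AQP1, ANPEP and CDH1 fall below 1 CPM, and these, AP000350.10, MIF-AS1, BRD2 and DEXI were named after their values were seen. Some genes of the lists enter the counts but are not reported here by name.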

Additional observations from a re-analysis of the deposited data

How the results depend on the processing

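Of 86 estimates of the 5 tested members over the alternatives, 79 kept their direction and stayed outside an adjusted p of 0.05, 7 changed sign and 0 were called. The 86 include the summed rows of MIF and AP000350.10. The sign changes were MIF without control replicate 1 (0.102) and CTSV, whose estimate of 0.0036 lies near 0, with library size only (-0.020), the replicate block (-0.0010), FPKM with pseudocounts of 1 (-0.013) and 0.1 (-0.016), without control replicate 2 (-0.047) and without knockdown replicate 2 (-0.087). Leaving out 1 library gave log2 fold changes of 0.083 to 0.378 for CD74, 0.098 to 0.414 for HLA-DMA, 0.073 to 0.884 for HLA-DMB, -0.50 to 0.102 for MIF and -0.087 to 0.076 for CTSV. For HLA-DMB without control replicate 1 the edgeR unadjusted p was 0.00107 (adjusted p 0.362). Without the low-count filter edgeR gave unadjusted p of 0.022 for CD74, 0.00248 for HLA-DMB and 0.0206 for MIF. Their adjusted p in that edgeR fit were 0.533, 0.196 and 0.519. Without control replicate 1 and knockdown replicate 3 together the values were 0.477 for CD74 (unadjusted p 0.0242, adjusted p 0.281 in edgeR), 0.315 for HLA-DMA, 0.801 for HLA-DMB (unadjusted p 0.00111, adjusted p 0.197), -0.0042 for MIF and 0.112 for CTSV. The count of called genes, 0 in edgeR (1251 at an unadjusted p under 0.05), was 165 without the low-count filter, 31 with DESeq2, 0 to 4 when 1 library was left out, and 6 without control replicate 1 and knockdown replicate 3, a pair chosen after the data were seen. The cause was not tested. With 3 libraries per group, folds within the printed intervals could not be resolved.

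The labels do not say whether replicate numbers pair the libraries. Deviations of same-numbered libraries from their group means had correlations across genes of -0.0616, 0.118 and -0.203 for numbers 1, 2 and 3. Differently numbered libraries ranged from -0.226 (control 1 with knockdown 2) to 0.217 (control 1 with knockdown 3). Such correlations in 3 libraries per group cannot decide pairing. With the replicate block edgeR gave 0 genes (1076 at an unadjusted p under 0.05), CD74 had a log2 fold change of 0.293 and HLA-DMB of 0.506.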
